A study of Mus musculus with 8 samples.

Results

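The 6 genes described here encode co-stimulatory receptors of T cells and the ligand of one of them: Cd28 and Icos, receptors of the CD28 family, Icosl, the ligand of ICOS, and Cd27, Tnfrsf4 (OX40) and Tnfrsf9 (4-1BB), receptors of the TNF receptor superfamily. They were chosen by name and function, by no threshold on measured values, from the 754 genes of a NanoString panel for myeloid and innate immunity, in which barcoded probes are counted without amplification. Splenic CD8 T cells of C57BL/6 mice were cultured for 48 hours in 200 µl of medium conditioned for 48 hours by B16F10 melanoma cells, which were either wild type for SSBP4 (wild-type medium, samples WT 1 to WT 4) or SSBP4 knockout (knockout medium, samples KO 1 to KO 4). Anti-CD3 and anti-CD28 were added at 2 µg/ml to every culture of both groups, so the receptor CD28 was itself the target of an antibody in all 8 samples. The knockout was in the tumour cells, not in the cells measured, and the labels do not give the clone of either tumour line, the age of the mice or whether samples came from separate mice, so the p-values rest on a spread between samples that may be only technical.

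A T cell needs a signal besides its antigen receptor to be fully activated. CD28 gives that signal in resting cells on binding CD80 or CD86 and recruits phosphoinositide 3-kinase. ICOS, induced by activation, signals in a like way. CD27, OX40 and 4-1BB bind the ligands encoded by Cd70, Tnfsf4 and Tnfsf9 and signal through TRAF adaptors to NF-kappaB, and 4-1BB is widely used as a mark of recently stimulated CD8 T cells.

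All values are the authors' normalized values. Dividing by 1 factor per sample gave back whole counts for 99.87% to 100% of values above 1. In some samples these could not be taken as recovered reads by the rule used for count models. The totals of these counts were 188174 to 346651 per sample and did not differ past the threshold between media (exact two-sided permutation test, p = 0.314, the same after adjustment over 2 measures). A count was taken as above background at 22.1 or more, which is 2 SD over the mean of the panel's negative probes, and genes whose mean value over the 8 samples reached it were tested, 454 genes in all and all 6 co-stimulatory genes among them. Of the T cell markers, 4 of 9 were measured (Cd247, Lat, Fyn and Ptprc), and all 4 lay above background in knockout medium. In wild-type medium Lat lay near background, with 21 to 46 counts and WT 1 under it. The CD8 and CD3 chains that define these cells were not analysed here. The summed value of the 4 measured T cell markers was 658 to 931 in wild-type medium and 1390 to 2031 in knockout medium. That of 8 measured stromal markers was 8867 to 9918 and 549.99 to 883. In knockout medium 6 of these 8 were under the background count in every sample, while Fn1 was at 478 to 810. Pdgfrb went the other way, at 20.9 to 23.5 in wild-type medium and 26.5 to 43.8 in knockout medium. The part of these shifts in the results below was not tested. In RNA from whole cultures, more cells of a type and more RNA per cell cannot be told apart.

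In knockout medium Tnfrsf9, Cd28, Cd27 and Tnfrsf4 rose, and Icos and Icosl did not pass the test. Tnfrsf9 stood apart in size: it was at or near background in wild-type medium and clearly measured in all 4 knockout medium samples. With 4 of 6 genes higher and 0 lower, their count is to be read against 71.6% of all tested genes called in either direction, 46.9% higher and 24.7% lower (limma, adjusted p under 0.05). The values of the 2 media did not overlap for 3 of the 6, all with knockout medium higher, against 68.1% of all tested genes in either direction and 44.3% in this one. The median log2 difference of the 6 genes was 1.12, beside 0.41 for all tested genes and 1.24 for the 4 T cell genes.

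Set against the mean log2 of Cd247, Lat, Fyn and Ptprc in the same sample, Tnfrsf9 was the 1 gene of the 6 that remained higher, Icosl was lower, and Cd27, Cd28, Icos and Tnfrsf4 did not pass. On this relative scale 70.7% of all tested genes were called, 14.3% higher and 56.4% lower, so a single lower call among 6 lies below the background and a single higher call close to it. The media did not overlap for 2 of the 6 genes, Tnfrsf9 and Icosl, against 62.6% of all tested genes, 13.4% with knockout medium higher. The median log2 difference was -0.07 for the 6 genes and -0.78 for all tested genes. The reference itself was 6.59, 6.83, 7.32 and 6.93 on the log2 scale in WT 1 to WT 4 and 7.71, 8.08, 8.45 and 8.18 in KO 1 to KO 4. The 2 media did not overlap in it and differed by 1.19 (exact two-sided permutation test, p = 0.0286, the smallest that 70 assignments allow, adjusted to 0.0571 over 2 measures). The reference genes were chosen with earlier results of these data known, so this p-value is not an independent test of their rise.

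**Figure D1:**
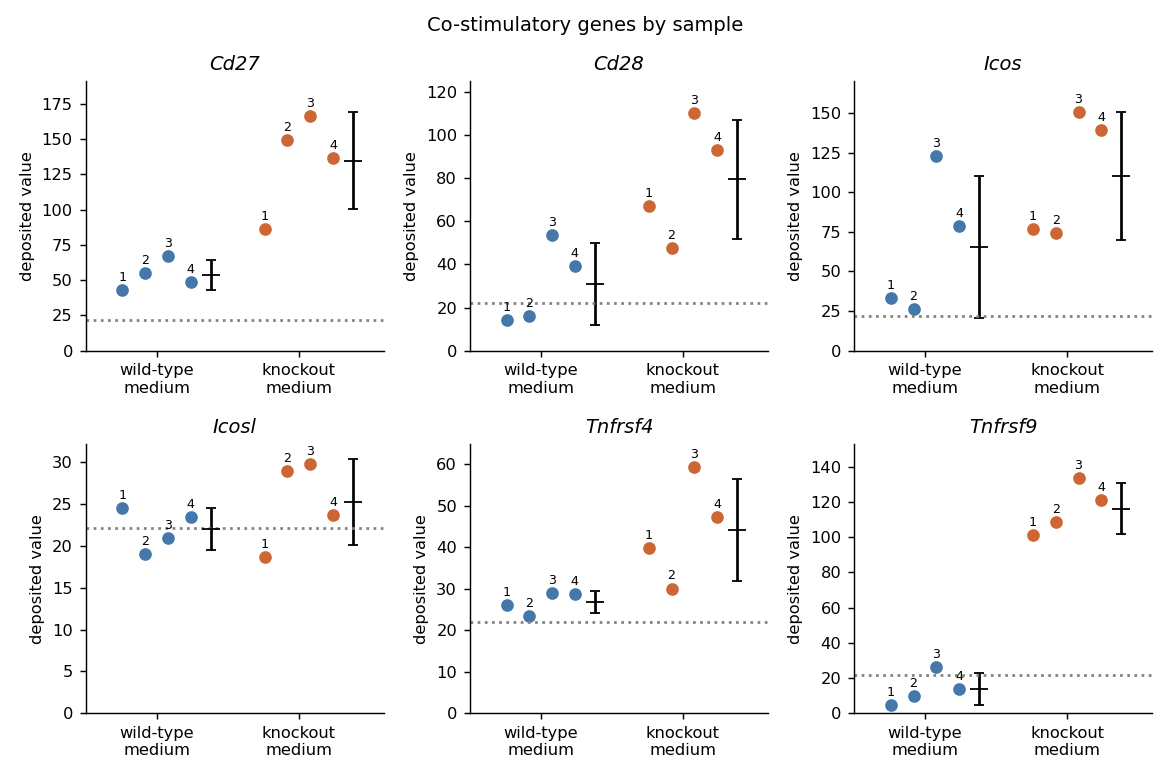
Deposited values (linear axis from 0, with its own range in each panel) of the 6 genes in each of 4 wild-type medium and 4 knockout medium samples, numbered as in the titles. Black bars are the mean ± SD and the dotted line is the background threshold of 22.1; Tnfrsf9 lies at 4.75 to 26.4 in wild-type medium and at 101 to 134 in knockout medium.

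Tnfrsf9 encodes 4-1BB, a receptor induced on T cells after stimulation whose signal favours survival of CD8 T cells. Its values were 4.75, 9.95, 26.4 and 13.8 in WT 1 to WT 4 and 101, 109, 134 and 121 in KO 1 to KO 4. Every knockout medium sample lay above every wild-type medium sample, and the knockout medium samples lay close together. In wild-type medium 3 of 4 samples were under the background count, with 6, 11 and 13 counts, and WT 3 had 29, whereas knockout medium gave 76 to 128 counts. With wild-type values under background raised to it, Tnfrsf9 was at least 5.01-fold higher. The fitted log2 difference was 3.20 (SE 0.42, limma adjusted p = 0.000146), a size that depends on the pseudocount since the wild-type values are so low, and was 2.60 with a pseudocount of 8.

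Relative to the T cell genes, Tnfrsf9 was -4.06, -3.38, -2.54 and -3.04 on the log2 scale in WT 1 to WT 4 and -1.03, -1.30, -1.38 and -1.24 in KO 1 to KO 4. The groups did not overlap here either, and the difference was 2.02 (SE 0.32, 95% interval 1.34 to 2.70, limma adjusted p = 7.63e-05). The differences between samples of the same number were 3.03, 2.08, 1.16 and 1.79 for numbers 1 to 4, all in one direction and smallest for number 3, where the wild-type value was highest.

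Since Tnfrsf9 was the gene that rose beyond the T cell genes, its promoter windows are shown, as RefSeq gives them for GRCm38.p6 (250 bases before to 50 after a transcript start). Such windows were found for 4 of the 6 genes, and 2 of them belong to Tnfrsf9, on the plus strand at chr4:150919905-150920204 and chr4:150927749-150928048. Capitals mark a match to the kappaB motif (GGG and TTTCC with any 2 bases between them) or the AP-1 motif TGANTCA, searched on both strands.
Tnfrsf9, first start: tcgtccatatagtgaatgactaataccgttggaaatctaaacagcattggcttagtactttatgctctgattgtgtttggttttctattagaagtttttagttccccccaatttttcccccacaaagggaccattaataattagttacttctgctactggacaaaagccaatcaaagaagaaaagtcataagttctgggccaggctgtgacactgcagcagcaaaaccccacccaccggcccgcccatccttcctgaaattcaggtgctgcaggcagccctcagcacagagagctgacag
Tnfrsf9, second start: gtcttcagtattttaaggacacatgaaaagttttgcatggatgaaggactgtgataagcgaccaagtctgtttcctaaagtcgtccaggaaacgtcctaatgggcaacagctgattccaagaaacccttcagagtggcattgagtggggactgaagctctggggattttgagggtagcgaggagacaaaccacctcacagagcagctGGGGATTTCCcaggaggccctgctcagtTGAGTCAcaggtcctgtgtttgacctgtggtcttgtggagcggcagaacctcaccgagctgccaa
The second window held 1 kappaB match, GGGGATTTCC, beginning 43 bases before the start, and 1 AP-1 match beginning 15 bases before it, and the first held neither. Of 32851 windows of this length over all genes, 1.63% held the kappaB motif and 7.81% the AP-1 motif. The short NFAT core GGAAA, found in 61.3% of all windows and not capitalised here, was present 2 times in the first window and 3 times in the second, where 1 match overlaps the kappaB match. The windows of Cd27, Tnfrsf4 and Icosl held no kappaB or AP-1 match. Which start the panel's probe reads was not determined, and a match of letters is a description of the sequence only.

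Cd27, a receptor already present on naive T cells that binds CD70, was 42.8, 55.2, 67.3 and 48.9 in WT 1 to WT 4. In KO 1 to KO 4 it was 86.4, 149, 167 and 136. The groups did not overlap, and KO 1, which had the fewest total counts, was the lowest of its group. Cd27 rose by 1.29 on the log2 scale (SE 0.23, 95% interval 0.76 to 1.82, limma adjusted p = 0.000979). On the relative scale it ran from -1.28 to -1.02 in wild-type medium and from -1.26 to -0.85 in knockout medium, and these ranges overlapped. The relative difference of 0.11 (SE 0.20, limma adjusted p = 0.661) had a 95% interval of -0.33 to 0.54, so Cd27 differed from the T cell genes by less than the samples could resolve.

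Tnfrsf4 encodes OX40, a receptor that appears on T cells after activation and is most abundant on CD4 T cells. The 1 measured marker of CD4 T cells, Cd40lg, was at or below 7.42 in every sample. Tnfrsf4 was 26.1, 23.5, 29.1 and 28.7 in WT 1 to WT 4 and 39.9, 30.1, 59.4 and 47.4 in KO 1 to KO 4. The groups did not overlap, but KO 2 was within 1 unit of the highest wild-type sample, and the counts behind the values were only 26 to 33 and 26 to 56. The log2 difference was 0.66 (SE 0.23, limma adjusted p = 0.0257). This call was lost without WT 1, WT 2, KO 3 or KO 4 (limma adjusted p of 0.00719 to 0.0676 over the 8 samples left out in turn), and also under median, quantile or positive control scaling (log2 difference of 0.27, 0.10 and 0.52). On the relative scale Tnfrsf4 had a difference of -0.53 (SE 0.27, limma adjusted p = 0.0957), on the other side of 0.

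Cd28, the receptor that the antibodies in the culture also bound, was 14.3, 16.3, 53.7 and 39.3 in WT 1 to WT 4. It was 67.2, 47.5, 110 and 92.9 in KO 1 to KO 4. The groups overlapped, because WT 3 lay above KO 2, and WT 1 and WT 2 were under background with 18 counts each. Cd28 rose by 1.47 on the log2 scale (SE 0.46, 95% interval 0.43 to 2.51, limma adjusted p = 0.0170). The call was lost when the first and last pair of samples in each medium were averaged (limma adjusted p = 0.122). The values relative to the T cell genes were -2.66, -2.72, -1.54 and -1.59 against -1.61, -2.48, -1.65 and -1.62, so 5 of the 8 samples lay between -1.65 and -1.54 and the other 3 at or below -2.48. The relative difference was 0.29 (SE 0.34, limma adjusted p = 0.469).

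Icos encodes the receptor that sustains T cell responses after activation. It was 33.3, 26.2, 123 and 78.6 in WT 1 to WT 4 and 77.1, 74.1, 151 and 139 in KO 1 to KO 4. The groups overlapped, and in each medium samples 3 and 4 lay above samples 1 and 2. The log2 difference of 0.94 (SE 0.50, 95% interval -0.19 to 2.07) did not pass (limma adjusted p = 0.119), nor did it with sample pairs averaged (limma adjusted p = 0.319), but it passed with the sample number as a block (limma adjusted p = 0.00623), where each knockout medium sample lay above the wild-type medium sample of its number, by 1.19, 1.46, 0.29 and 0.82 on the log2 scale for numbers 1 to 4. It also passed without WT 3, the highest of its group (log2 difference of 1.33, limma adjusted p = 0.0248). Icos relative to the T cell genes had a difference of -0.25 (SE 0.35, 95% interval -1.0 to 0.51, limma adjusted p = 0.545), and it was 0.14 in samples 1 and 2 alone and -0.64 in samples 3 and 4 alone, the latter past the threshold (limma adjusted p = 0.0272). The block did not bring the relative difference past the threshold (limma adjusted p = 0.318).

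In wild-type medium Cd28 and Icos varied more than Cd27 and Tnfrsf4, while in knockout medium their spans were close together. Between the lowest and the highest sample of wild-type medium, Tnfrsf9 spanned 5.55-fold at or near background, Icos 4.68-fold and Cd28 3.77-fold, while Cd27 spanned 1.57-fold and Tnfrsf4 1.24-fold. In knockout medium the spans were 2.03-fold for Icos, 2.32-fold for Cd28, 1.93-fold for Cd27, 1.97-fold for Tnfrsf4 and 1.32-fold for Tnfrsf9. Samples 3 and 4 exceeded samples 1 and 2 in wild-type medium by 3.25-fold for Icos and 2.89-fold for Cd28, and in knockout medium by 1.91-fold and 1.78-fold, as ratios of geometric means. The same order held in both media for Tnfrsf9 (2.54-fold and 1.21-fold), Tnfrsf4 (1.16-fold and 1.52-fold) and each of the 4 T cell genes (1.11-fold to 1.65-fold), but not for Cd27 and Icosl. What these sample numbers stand for is not given.

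Icosl encodes the ligand of ICOS, which is carried mainly by antigen-presenting cells and by many non-immune cells. It was 24.6, 19, 20.9 and 23.4 in WT 1 to WT 4 and 18.6, 28.9, 29.7 and 23.7 in KO 1 to KO 4. The groups overlapped, and all values lay around background, with 21 to 31 and 14 to 28 counts. The lowest and highest counts were 14 in KO 1 and 31 in WT 1. Their exact Poisson 95% intervals, 7.65 to 23.5 and 21.1 to 44.0, cover counting error only and overlapped. These counts are unscaled, and the scaling factors of KO 1 and WT 1 were 1.33 and 0.792. The log2 difference was 0.18 (SE 0.21, 95% interval -0.29 to 0.65, limma adjusted p = 0.474). Relative to the T cell genes Icosl was lower by 1.01 on the log2 scale (SE 0.29, limma adjusted p = 0.00704), which is the near-constant value of Icosl set against a reference higher by 1.19. That call was lost with the same averaging of pairs (limma adjusted p = 0.0891). Markers of cells that can carry the ligand were mixed in level, and their part in the Icosl values was not tested. Both measured B cell markers together, Ms4a1 and Fcer2a, summed to 17.2 to 26.1 in wild-type medium and 14.3 to 32.4 in knockout medium, and of 10 measured dendritic cell and macrophage markers 6 were under the background count in every sample. The other 4 of these included Cd68, a lysosomal protein gene of macrophages, at 192 to 328 in wild-type medium and 154 to 209 in knockout medium, and Itgam at 24.6 to 30.8 and 21.8 to 34.7. They also included Cd14, at 11.7 to 25.5 in wild-type medium and 3.47 to 6.64 in knockout medium, and Batf3, at 10.9 to 27.3 and 20.8 to 27.5. Cd14 and Batf3 were too low on average to be tested. The summed stromal markers, of cells that can also carry the ligand, were high in wild-type medium as given above. Pdgfrb among them was near background there, at 20.9 to 23.5.

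**Figure D2:**
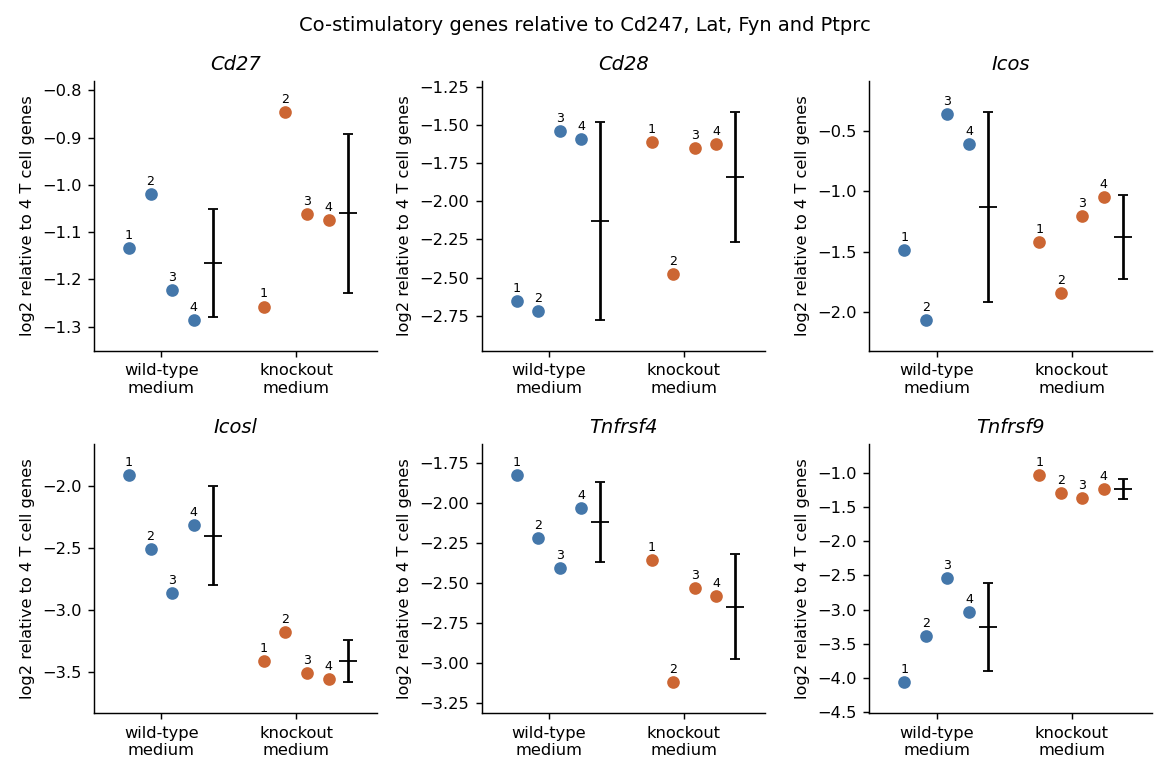
Log2 values of the 6 genes relative to the mean log2 of Cd247, Lat, Fyn and Ptprc in the same sample, numbered as in the titles, with mean ± SD in black and its own axis range in each panel. The media are apart for Tnfrsf9 (higher in knockout medium) and Icosl (lower) and overlap for the other 4 genes.

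The differences of all 6 genes on both scales can be set beside those of the 4 T cell genes, which act in antigen receptor signalling, although Ptprc and Fyn are also used by other cells. Cd247, the zeta chain of the receptor, rose by 1.21 on the log2 scale (SE 0.17), Ptprc, the CD45 phosphatase, by 1.39 (SE 0.21), Lat, the adaptor, by 1.27 (SE 0.35) and Fyn, a kinase, by 0.88 (SE 0.09). The rises of Cd247, Ptprc and Lat were of the size seen for Cd27 and Cd28, and that of Fyn was smaller. Relative to the mean of the 4 T cell genes, which fixes the balance of their differences at 0, the limma adjusted p was 0.166 to 0.908. Ptprc did not overlap between media on that scale (0.97 to 1.08 against 1.19 to 1.33). Leaving any 1 of the 4 out of the reference changed no call among the 6 co-stimulatory genes.

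**Figure D3:**
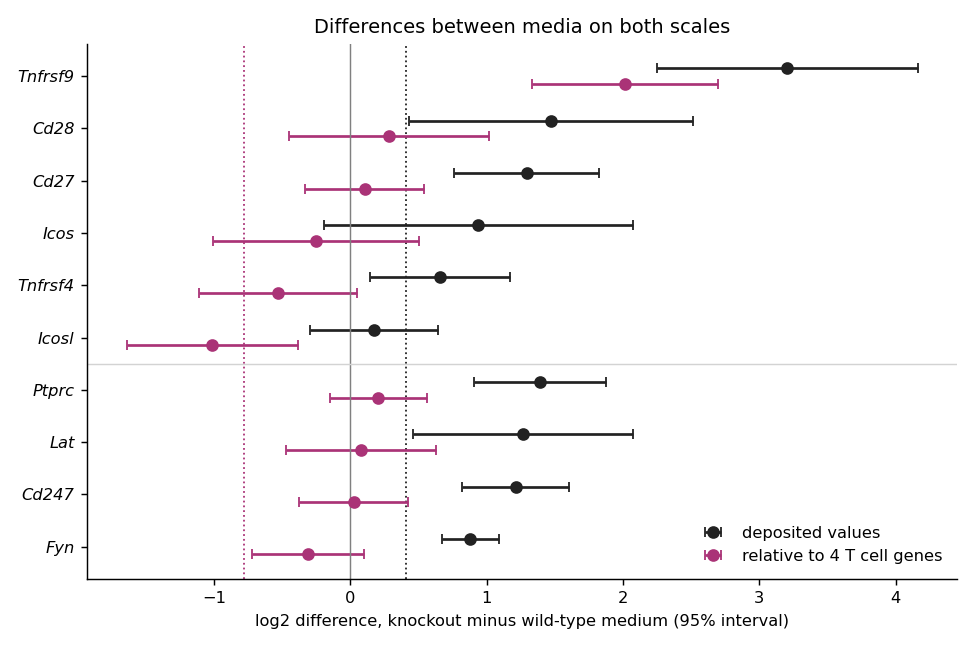
Log2 difference between knockout and wild-type medium with its 95% interval for the 6 co-stimulatory genes (top) and the 4 T cell genes (bottom), from deposited values (black) and relative to the T cell genes (purple). Dotted lines are the medians of all 454 tested genes, 0.41 and -0.78; on the relative scale the intervals of Tnfrsf9 and Icosl exclude 0 and those of the other 8 genes do not.

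The genes whose profiles over the 8 samples lay nearest to each co-stimulatory gene were found among 448 other tested genes, by the root mean square difference of log2 values after each gene was centred on its own mean. Cd27 had the closest neighbour, Dpp4 (CD26, a peptidase of the T cell surface), at a difference of 0.09 log2 units, followed by Ptprc at 0.15. For Cd28 they were Nkg7, a granule protein gene of cytotoxic cells, at 0.20, and Il10ra, the IL-10 receptor chain, at 0.23. Tnfrsf9, whose own spread over the 8 samples was 1.71 log2 units, had Crem and Id2 as neighbours, both at 0.36. Crem is a transcription factor gene and Id2 a regulator of effector T cells. Icos was 0.35 from Rgs1, a regulator of G protein signalling, and 0.36 from Pik3cg, a phosphoinositide 3-kinase gene. Tnfrsf4 was 0.14 from Trex1, an exonuclease gene, and 0.16 from Ifnar2, an interferon receptor chain, and Icosl, whose own spread was only 0.23, was 0.15 from Prdx1 and 0.16 from Tbp, a gene used in the authors' scaling. These distances describe the same 8 libraries and share their scaling.

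Tnfsf9 was above background in all 8 samples, and the other ligand genes of these receptors were near or under it. Of the 6 ligand genes, which include Icosl, 3 were tested, of which 1 rose (46.9% of all tested genes did), 0 fell and 2 did not pass, with a median log2 difference of 0.18 beside 0.41 for all genes. Tnfsf9, the ligand of 4-1BB, was 42.0, 47.1, 38.2 and 46.8 in WT 1 to WT 4 and 57.1, 61.4, 80.6 and 55.9 in KO 1 to KO 4. The groups did not overlap and it rose by 0.53 on the log2 scale (SE 0.17, limma adjusted p = 0.0191), a call lost without WT 3 (limma adjusted p = 0.0534) and with median, quantile or positive control scaling, where the differences were 0.14, 0.01 and 0.38. Relative to the T cell genes its difference was -0.66 (SE 0.26, limma adjusted p = 0.0347), a call lost in 9 of 19 alternatives. All 3 tested ligand genes were lower on that scale, as were 56.4% of all tested genes. Tnfsf4, the ligand of OX40, was 24.7 ± 1.37 against 21.5 ± 8.21 (SD, n = 4 each, limma adjusted p = 0.399). Cd70, the ligand of CD27, and Cd80 and Cd86, which bind CD28 and CTLA-4, had means too low to be tested, with highest values of 6.36, 25.5 and 13.8 in any sample.

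Among 5 genes of the inhibitory side of the CD28 family, 1 rose, 1 fell and 3 did not pass, fewer calls than the 71.6% of all tested genes would give, and the median log2 difference was 0.55 beside 0.41. Ctla4, which competes with CD28 for CD80 and CD86, was 56.2, 62.4, 85.5 and 60.6 in WT 1 to WT 4 and 150, 189, 211 and 173 in KO 1 to KO 4. It rose by 1.44 on the log2 scale (SE 0.17, limma adjusted p = 7.39e-05), close to the 1.47 of Cd28 but with a far smaller spread, and relative to the T cell genes it did not pass (0.25, SE 0.19, limma adjusted p = 0.25). Cd274 (PD-L1) fell by 0.92 on the log2 scale (limma adjusted p = 0.0342), and this call was lost without WT 2, WT 3, WT 4, KO 1 or KO 2 (limma adjusted p of up to 0.0961). Relative to the T cell genes its difference was -2.11 (SE 0.24, limma adjusted p = 3.94e-06), a call lost in 0 of 19 alternatives. It was the 1 gene of these 5 called lower on that scale, beside 56.4% of all tested genes. Pdcd1lg2 and Btla had log2 differences of 0.59 and 0.55 that did not pass (limma adjusted p = 0.078 and 0.155). Of 4 further co-stimulatory genes measured, only Tnfrsf14 (HVEM) was tested, and it rose by 0.56 (SE 0.23, limma adjusted p = 0.0495), a call lost in 14 of 18 alternatives, among them the omission of any 1 of WT 1 to WT 4, KO 3 and KO 4 (limma adjusted p of up to 0.129). Relative to the T cell genes Tnfrsf14 was lower, with a difference of -0.63 (SE 0.19, limma adjusted p = 0.0112), a call lost in 2 of 19 alternatives.

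The TRAF and NF-kappaB genes of the pathway through which the TNF receptor members signal moved mostly the other way. Of 8 tested TRAF and NF-kappaB genes 2 rose, 5 fell and 1 did not pass, so 5 of 8 were lower beside 24.7% of all tested genes, and the median log2 difference was -0.86 beside 0.41. Traf2, the adaptor shared by CD27, OX40 and 4-1BB, was 784, 768, 619 and 703 in WT 1 to WT 4 and 174, 193, 258 and 219 in KO 1 to KO 4. It fell by 1.77 on the log2 scale (SE 0.14, limma adjusted p = 4.71e-06), with no overlap between the groups. Traf1, an adaptor induced by NF-kappaB, fell by 1.20, Birc3, a ubiquitin ligase that TRAF2 recruits, by 1.22, and Nfkbia, the NF-kappaB inhibitor, by 1.42 on the log2 scale (limma adjusted p of 0.000346, 0.000986 and 0.00178). Map3k14, the kinase NIK, also fell, by 0.52 (limma adjusted p = 0.034), a call lost with the sample number as a block (limma adjusted p = 0.0538) and without WT 1, WT 2, WT 4, KO 2 or KO 4 (limma adjusted p of up to 0.0891). Nfkb1 and Traf6 rose by 0.56 and 0.32, and neither passed with median scaling (0.17 and -0.07) or positive control scaling (0.41 and 0.17). On the relative scale all 8 were lower, as were 56.4% of all tested genes. Of the 8 measured stromal markers 7 fell as well and 1, Pdgfrb, rose. Which cells held the TRAF transcripts was not tested.

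Downstream of CD28 and ICOS, 5 of the 20 listed kinase, adaptor and transcription factor genes were measured, of which 2 rose, 0 fell and 3 did not pass. That share of rises is near the 46.9% of all tested genes, and the median log2 difference was 0.75 beside 0.41. Nfatc2, a calcium-regulated transcription factor, rose from 21.9 ± 10.0 to 67.7 ± 19.1 (SD, n = 4 each), by 1.66 on the log2 scale (SE 0.36, limma adjusted p = 0.00265). Its wild-type mean lay just under the background threshold, with WT 1 and WT 2 at 10.3 and 18.1. It thus reached the test only through its knockout medium values. Vav1, an exchange factor that acts below CD28, rose by 0.94 (SE 0.24, limma adjusted p = 0.00712), a call lost with the same averaging of pairs (limma adjusted p = 0.0693). Relative to the T cell genes neither Nfatc2 (0.48, limma adjusted p = 0.137) nor Vav1 (-0.25, limma adjusted p = 0.301) passed. On that scale 0 of the 5 genes rose, 2 fell and 3 did not pass, beside 56.4% of all tested genes lower. Pik3cg had a difference of 0.75 (SE 0.33, limma adjusted p = 0.0722), which passed with the sample number as a block (limma adjusted p = 0.0109), and Nfatc1 one of -0.32 (SE 0.20, limma adjusted p = 0.177), which passed under median scaling (-0.72, limma adjusted p = 0.00541). Of 8 measured targets of co-stimulation 4 were tested, of which 2 rose and 2 fell, beside 46.9% and 24.7% of all tested genes. Bcl2, a survival gene, rose by 1.83 on the log2 scale (SE 0.18, limma adjusted p = 2.64e-05) and remained higher relative to the T cell genes, by 0.64 (SE 0.20, limma adjusted p = 0.0109), a call lost in 3 of 19 alternatives: with sample pairs averaged, in samples 1 and 2 alone (0.36) and without Fyn among the reference genes (0.54). Tnf rose by 1.25 (SE 0.44, limma adjusted p = 0.0292), a call lost without WT 1, WT 2, KO 3 or KO 4 (limma adjusted p of up to 0.0806). Its wild-type mean of 17.1 lay under the background threshold, so Tnf reached the test only through its knockout medium values. KO 1, at 19.9, was under that threshold too. Relative to the T cell genes Tnf did not pass (0.07, SE 0.34, limma adjusted p = 0.876). Myc and Birc5 (survivin), genes of growth and division, fell by 1.78 and 2.14 on the log2 scale (limma adjusted p = 1.65e-07 and 1.47e-06).

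**Figure D4:**
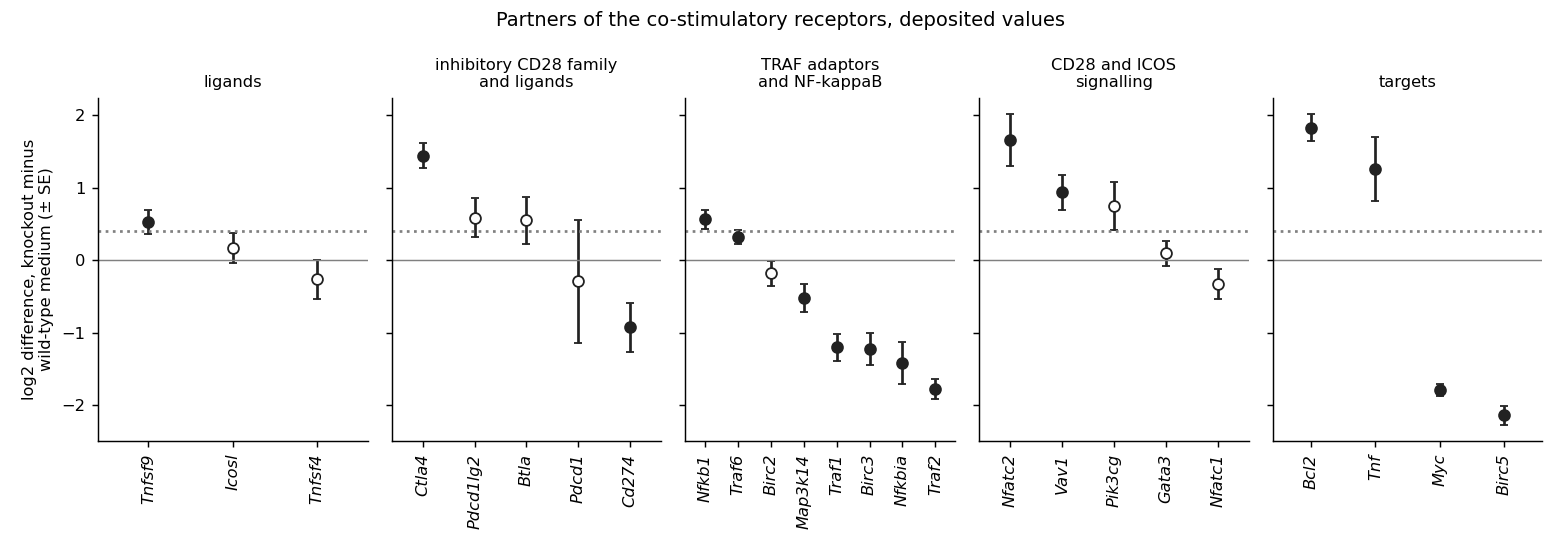
Log2 difference (± SE) between knockout and wild-type medium in deposited values for the tested genes of 5 lists of partners of the co-stimulatory receptors; filled points passed the limma threshold and open points did not. The dotted line is the median of all tested genes, 0.41; Traf2, Nfkbia, Birc3 and Traf1 lie below -1, opposite in sign to the receptors.

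The authors' scaling bears on these directions. Over all tested genes 213 were higher and 112 lower, and the split became 152 to 147 by median scaling, 166 to 136 by quantile normalization and 173 to 115 by positive controls alone, as the median of all genes moved from 0.41 to 0.02, 0.11 and 0.26. Under these 3 scalings Tnfrsf9 (2.81 to 3.06), Cd27 (0.84 to 1.15) and Cd28 (1.00 to 1.33) remained higher and past the threshold, and the sign of Icosl turned under the median (-0.22) and quantile (-0.24) methods.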

How the data were processed

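Total RNA of 8 samples was measured on the nCounter Mouse Myeloid Innate Immunity panel, per the labels' protocols. The deposited signal values are normalized by the authors, with software and settings not given in the sources used here. In the deposited values each sample's gene rows were whole multiples of 1 factor (0.792 to 1.33) for 99.87% to 100% of values above 1, within 0.1 of a step. The factor equalled, at a ratio of 1.00, a positive-control factor times one from 20 scaling genes. Values below 1 were listed as 1, and 14 control probes were left as whole counts.

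Genes with a mean of at least 22.1 (mean plus 2 SD of the negative controls, unscaled) were tested with limma 3.58.1 in R 4.3.3 (lmFit, eBayes with trend) on log2(value + 1), with 1 term for the medium. The limma p-values are two-sided, with Benjamini-Hochberg adjustment over the 454 genes (754 without the filter) at a threshold of 0.05. Single measures had an exact permutation test, adjusted over 2 measures. Differences on this scale understate the change of low genes. The relative scale subtracts each sample's mean log2 of Cd247, Lat, Fyn and Ptprc from every gene, before the same fit. The fit was also tested on simulated data.

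The main fit did not pair the samples, and the sample number entered only as a block in an alternative. Deviations from group means correlated at 0.20 to 0.46 between same-numbered samples across genes, all 4 pairs above 0.1. What the numbers stand for is not given. Samples of different number within 1 and 2 or within 3 and 4 correlated at 0.25 to 0.42, and those across these pairs at -0.45 to -0.21, so these values do not separate pairing by number from pairing by the first and last samples of a medium. The members, lists and reference genes were chosen with earlier results of these data known. The text names all 6 members, the 4 reference genes, up to 4 genes per list with the smallest p and the 2 genes nearest to each member. The other genes of lists, or of calls within them, that are named beside small counts were chosen after their values were seen. Gene symbols were current in RefSeq GRCm38.p6 for 744 of 754 genes and all 6 members. Other T cell, B cell and melanoma markers on the lists were not analysed here. Alternatives are given at the end.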

Additional observations from a re-analysis of the deposited data

Results flagged for a closer look

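Relative to the T cell genes, Cd28 in KO 2 was -2.48 on the log2 scale, far below the other 3 samples of that medium, which lay between -1.65 and -1.61. The gap took up 0.958 of the group's range, above Dixon's 95% critical value for 4 samples. It was the 1 group flagged of 32 examined, and chance flags about 1 in 20.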

How the results depend on the processing

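Over 18 alternatives on deposited values and 19 on the relative scale, 201 of 222 values of the 6 genes kept their direction and their side of the threshold. Tnfrsf9 and Cd27 did so in every alternative run, with log2 differences of 2.60 to 3.74 and 0.84 to 1.49 on deposited values. Leaving out each sample in turn gave 0.51 to 0.83 for Tnfrsf4 and 0.60 to 1.33 for Icos on deposited values, and -0.56 to 0.0082 for Icos on the relative scale, reversed without WT 3. The call of Tnfrsf4 was lost with median scaling (0.27), quantile normalization (0.10), positive control scaling (0.52), samples 1 and 2 only (0.47) and sample pairs averaged (0.66), and that of Cd28 (1.47) and relative Icosl (-1.01) with sample pairs averaged. Icosl reversed with median scaling (-0.22) and quantile normalization (-0.24). Icos passed in samples 1 and 2 only (1.33) and with the replicate block (0.94), which changed no other call among the 6 genes. On the relative scale Icos was 0.14 in samples 1 and 2 only and -0.64 in samples 3 and 4 only, where Cd28 was -0.070, and Tnfrsf4 passed with a pseudocount of 8 (-0.56). Without the filter 430 genes were lower on the relative scale, against 256, since 754 genes were then tested. The T cell reference differed by 1.27 with Lat alone (exact permutation test, p = 0.0571) and by 1.07 to 1.32 with each sample left out, an alternative chosen after seeing the data. The cause of these changes was not tested. The 3 planned count models were not run, because in 3 samples the values could not be taken as recovered reads by the rule used. Counts near background limit Icosl, Tnfrsf4 and the wild-type values of Tnfrsf9 and of Lat, which is part of the T cell reference.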

Other observations

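Some other genes of T cell activation, picked after their values were seen, were also higher in samples 3 and 4 than in samples 1 and 2 of both media, as Icos and Cd28 were. Pdcd1 (PD-1) was 11.1, 9.05, 71.9 and 41.4 in WT 1 to WT 4 and 14.6, 4.63, 50.9 and 36.0 in KO 1 to KO 4. Klrk1, the activating receptor NKG2D, was 20.6, 28.1, 154.7 and 77.6 against 39.9, 44, 213 and 189. Ifng was 4.75, 1.81, 46.4 and 32.9 against 6.64, 6.95, 27.6 and 19.0, too low on average to be tested. Tnfrsf9 shared the order, with samples 3 and 4 over samples 1 and 2 by 2.54-fold in wild-type medium and 1.21-fold in knockout medium.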
